A study of Rattus norvegicus with 10 samples.

Results

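Basement membrane genes were followed in whole liver of cirrhotic rats given CVX-060 or vehicle. The members were Col4a1 and Col4a2 (collagen IV chains), Lamb1, Lamb2 and Lamc1 (laminin chains), Nid1 and Nid2 (nidogens), Hspg2 (perlecan), and Col15a1 and Col18a1 (collagens XV and XVIII). Each was read from array probe sets annotated to that gene alone, and a gene with several such sets was represented by the set that varied most across the 10 arrays. All 10 listed genes were measured, among 14217 genes in all. The rule used the spread over all rats and not the groups.

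Cirrhosis had been induced in 10 male Wistar rats by inhalation of CCl4 (carbon tetrachloride, a hepatotoxin), so the vehicle rats went through the same induction as the treated rats. Of these, 5 received CVX-060, an inhibitor of angiopoietin 2, in weekly doses of 10 mg/kg over 4 weeks, and 5 received vehicle solution weekly. RNA of the whole organ was hybridised to Affymetrix rat expression arrays, an array for each rat, and signals are given on the log2 scale. No healthy liver was analysed here, so the values describe cirrhotic livers with and without the inhibitor, and the ages of the rats are not given in the sources used here. Albumin (Alb), the hepatocyte's main secreted protein, averaged a log2 signal of 14.80 in both groups.

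A basement membrane is a thin matrix sheet in which a laminin network and a collagen IV network are joined by nidogen and perlecan. The normal liver sinusoid is unusual in that its fenestrated endothelium lies on no continuous sheet of this kind. In chronic injury, hepatic stellate cells and endothelial cells lay down collagen IV and laminin in the space of Disse and the endothelium loses its fenestrae, a change known as capillarization. Angiopoietin 2 acts on the endothelial receptor Tie2, and its inhibition is meant to stabilise vessels. In RNA of the whole organ, fewer cells of a type and less RNA per cell cannot be told apart.

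Promoter sequences are shown for the 4 members on which the results below turn. The window of Col4a1 also holds the start of Col4a2. Lamb1 and Nid1 varied together with Col4a1 across the rats, and Col18a1, in the probe set used, did not. The sequences come from RefSeq on the GRCr8 build and run 5′ to 3′ on the gene's strand. They extend from 250 bases before the transcription start to 50 bases after it. In the Col4a1 window (chr16:84885347-84885646, plus strand) the capitals mark the stretch from the Col4a2 start to the Col4a1 start. In the other windows, of Lamb1 (chr6:53562846-53563145, plus strand), Nid1 (chr17:93069036-93069335, plus strand) and Col18a1 (chr20:11473395-11473694, plus strand), the capitals mark GC boxes, read as GGGCGG or its reverse complement CCGCCC.
Col4a1: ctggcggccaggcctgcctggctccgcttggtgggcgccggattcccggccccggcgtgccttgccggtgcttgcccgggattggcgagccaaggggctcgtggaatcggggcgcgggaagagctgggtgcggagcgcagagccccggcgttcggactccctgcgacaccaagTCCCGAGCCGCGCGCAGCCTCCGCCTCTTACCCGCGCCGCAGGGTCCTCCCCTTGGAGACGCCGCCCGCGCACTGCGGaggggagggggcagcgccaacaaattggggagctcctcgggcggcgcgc
Lamb1: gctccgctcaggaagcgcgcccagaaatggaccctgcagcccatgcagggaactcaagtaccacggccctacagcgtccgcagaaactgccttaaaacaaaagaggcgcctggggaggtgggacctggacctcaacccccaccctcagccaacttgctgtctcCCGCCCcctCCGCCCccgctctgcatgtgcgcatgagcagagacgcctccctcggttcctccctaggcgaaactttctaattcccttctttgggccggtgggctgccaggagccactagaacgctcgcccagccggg
Nid1: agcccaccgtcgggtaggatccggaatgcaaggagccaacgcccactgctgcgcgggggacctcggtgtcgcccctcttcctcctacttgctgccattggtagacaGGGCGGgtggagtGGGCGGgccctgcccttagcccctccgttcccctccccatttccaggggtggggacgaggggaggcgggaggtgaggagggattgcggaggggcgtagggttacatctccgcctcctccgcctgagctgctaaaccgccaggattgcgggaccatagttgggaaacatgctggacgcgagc
Col18a1: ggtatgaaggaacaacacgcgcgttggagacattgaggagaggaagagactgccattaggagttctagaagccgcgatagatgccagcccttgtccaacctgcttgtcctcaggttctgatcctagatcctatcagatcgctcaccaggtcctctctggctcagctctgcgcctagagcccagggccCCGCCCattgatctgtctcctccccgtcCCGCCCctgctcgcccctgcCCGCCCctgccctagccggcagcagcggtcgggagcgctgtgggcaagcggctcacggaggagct

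Col4a1 and Col4a2 lie head to head: Col4a2 is read from the minus strand, and the starts were 77 bases apart. The stretch between them, 78 bases with both starts counted, was 78.2% G or C and held 1 GC box and no CCAAT box (CCAAT or ATTGG), TATA box (TATAAA or TTTATA) or AP-1 site (TGANTCA). The table of promoters had windows for 8 of the 10 members. A GC box was present in 7 of the 8 (all but Col15a1), against 33.1% of all 33469 promoter windows of that length. A CCAAT box was found in 3 of the 8 (37.5% of all windows), a TATA box in 0 (14.2%) and an AP-1 site in 0 (7.33%), each on either strand. The windows of Col4a1 and Col4a2 share 176 of their 300 bases, so matches in that part are counted for both genes. These letter matches describe the windows and say nothing of which factors bind there.

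Before the results, 2 rats have to be named. CVX-060 rat 5 and vehicle rat 2 stood apart on the first principal component of all genes, which held 35.4% of the variance: their scores were 35.5 and 34.5, and those of the other rats lay between -26.2 and 9.74. The same rats carried high signals of Cyp2c12, a cytochrome P450 that is female-specific in rat liver, at 12.02 and 12.71, where the others had 7.11 to 9.79. All rats are labelled male, and the Y-linked gene Eif2s3y was between 8.99 and 9.36 in all 10. The part of this in the results was not tested beyond the values given below with and without these rats.

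Background was set per array as the 95th percentile of the signals of 32 probe sets for olfactory, vomeronasal or trace amine receptors, which liver is not known to express, and lay between 5.46 and 5.83. Of the 10 members, 8 were above it in every rat. Lamb2 was above it in 9 of 10 rats and Col15a1 in none. With the 99th percentile as the limit, the members above background in every rat numbered 3 (Col18a1, Lamc1 and Nid1), and with the 90th percentile 10.

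No member differed between CVX-060 and vehicle beyond the spread between rats. All 10 were higher on average with CVX-060, by a median of 0.07 on the log2 scale, where the median over all genes was 0.01 and 52.6% of all genes were higher. In limma, 0 of 10 members passed an adjusted p of 0.05 (0% of all genes) and 0 of 10 an unadjusted p of 0.05 (2.44% of all genes, 347 of 14217). The groups overlapped for every member. Without vehicle rat 5, 7 of the 10 were higher. Members that move together across rats are not separate evidence of a direction.

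**Figure D1:**
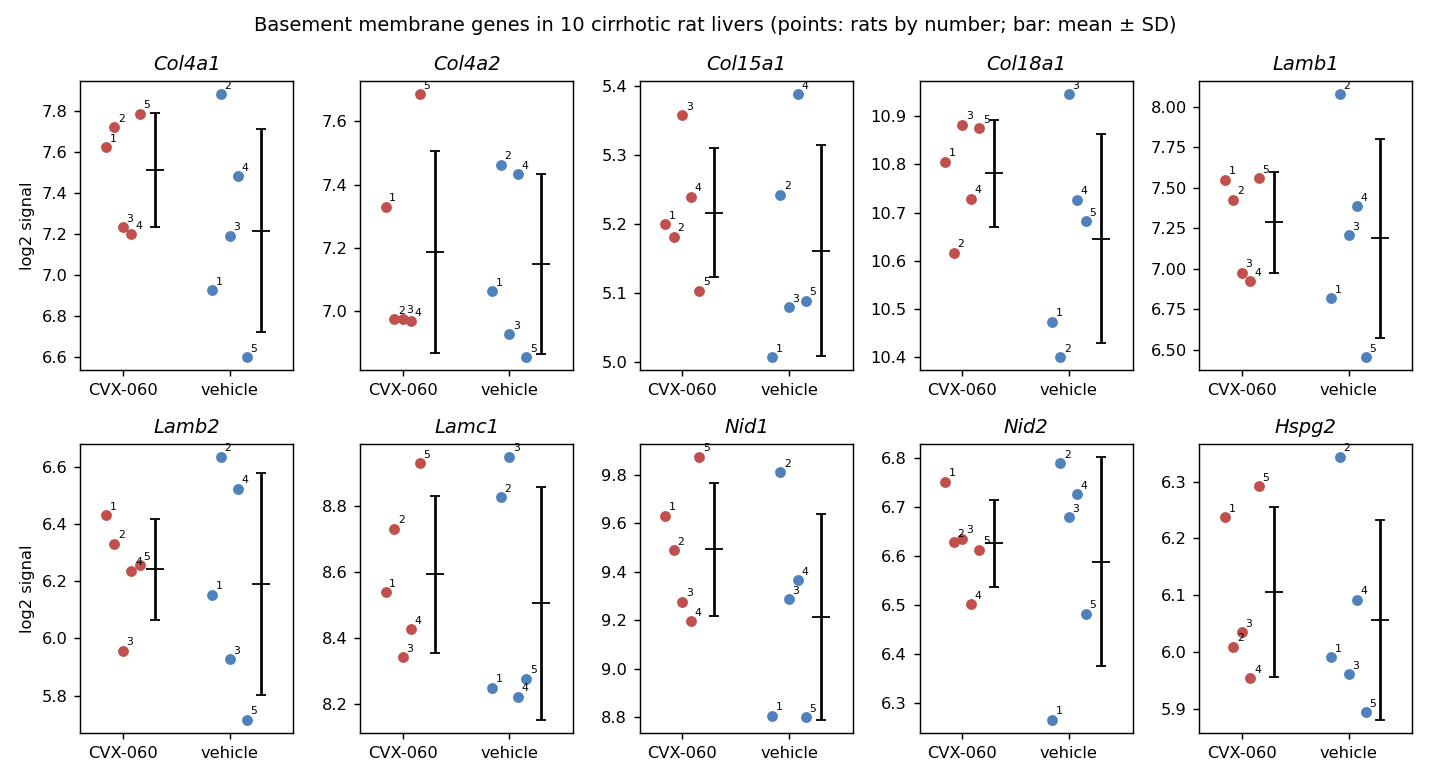
Log2 signal of the 10 basement membrane genes, a panel for each gene, with CVX-060 rats on the left and vehicle rats on the right; points are rats, labelled by number, and bars give the mean ± SD of 5 rats. The groups overlap in every panel. The vehicle rats spread more widely than the CVX-060 rats in 9 of 10, a count that was not set against all genes.

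Collagen IV forms the sheet's covalently linked network, from chains that combine as heterotrimers. Col4a1 had log2 signals of 7.63, 7.72, 7.23, 7.20 and 7.79 in CVX-060 rats 1 to 5, and of 6.93, 7.88, 7.19, 7.48 and 6.60 in vehicle rats 1 to 5. Vehicle rats 1 and 5 lay clearly and vehicle rat 3 narrowly below every treated rat, vehicle rat 2 lay above them all, and the groups overlapped. The difference was 0.30 (95% interval -0.21 to 0.80; limma, adjusted p = 0.99997, exact two-sided permutation test, p = 0.262), the largest among the members. Between the highest and the lowest of the 10 rats the signal changed 2.43-fold.

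Col4a2, its neighbour, had 7.33, 6.97, 6.98, 6.97 and 7.69 in CVX-060 rats 1 to 5, and 7.06, 7.46, 6.93, 7.43 and 6.86 in vehicle rats 1 to 5. Here CVX-060 rats 2, 3 and 4 sat almost at a single level and rat 5 well above them, and the vehicle rats fell in between and below. The difference was 0.04 (-0.35 to 0.42, exact permutation test, p = 0.825). Without the rats that stood apart it turned to -0.01, against 0.39 for Col4a1 in the same 8 rats.

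The laminins are heterotrimers of an alpha, a beta and a gamma chain that anchor the sheet to cells. Lamb1, a beta chain, had 7.55, 7.43, 6.98, 6.93 and 7.56 in CVX-060 rats 1 to 5, and 6.82, 8.08, 7.21, 7.39 and 6.46 in vehicle rats 1 to 5. The highest and the lowest of all rats were both vehicle rats, 3.08-fold apart, and the treated rats lay between them. The difference was 0.10 (-0.51 to 0.70, exact permutation test, p = 0.770), and it became -0.08 without vehicle rat 5.

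Lamb2, the other beta chain, had 6.43, 6.33, 5.96, 6.24 and 6.26 in CVX-060 rats 1 to 5, and 6.15, 6.63, 5.93, 6.52 and 5.72 in vehicle rats 1 to 5. Vehicle rats again held the highest and the lowest value. Lamc1, the gamma chain shared by most laminins, had 8.54, 8.73, 8.34, 8.43 and 8.93 in CVX-060 rats 1 to 5, and 8.25, 8.83, 8.95, 8.22 and 8.28 in vehicle rats 1 to 5. Its vehicle rats formed a high pair (rats 2 and 3) and a low trio, with the treated rats spread from one to the other. The differences were 0.05 for Lamb2 (-0.33 to 0.44, exact permutation test, p = 0.786) and 0.09 for Lamc1 (-0.30 to 0.47, p = 0.635).

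Nidogens bridge the laminin and collagen IV networks. Nid1 had 9.63, 9.49, 9.28, 9.20 and 9.87 in CVX-060 rats 1 to 5, and 8.81, 9.81, 9.29, 9.36 and 8.80 in vehicle rats 1 to 5. Vehicle rats 1 and 5 lay below every treated rat, here by a clear gap, while vehicle rat 2 was second only to CVX-060 rat 5. The difference was 0.28 (-0.17 to 0.73; limma, adjusted p = 0.99997, exact permutation test, p = 0.262), over a 2.10-fold range of signal.

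Nid2 had 6.75, 6.63, 6.64, 6.50 and 6.61 in CVX-060 rats 1 to 5, and 6.27, 6.79, 6.68, 6.73 and 6.48 in vehicle rats 1 to 5. Its vehicle rats were mostly as high as the treated rats, with rat 1 far below and rat 5 at their lower edge. Hspg2, whose heparan sulfate proteoglycan perlecan binds growth factors, had 6.24, 6.01, 6.03, 5.95 and 6.29 in CVX-060 rats 1 to 5, and 5.99, 6.34, 5.96, 6.09 and 5.89 in vehicle rats 1 to 5. These signals lay close to the array background, and the groups overlapped nearly throughout. The differences were 0.04 for Nid2 (-0.19 to 0.27, exact permutation test, p = 0.770) and 0.05 for Hspg2 (-0.18 to 0.28, p = 0.675).

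Collagens XV and XVIII carry heparan sulfate or chondroitin sulfate and release anti-angiogenic fragments, endostatin in the case of collagen XVIII, which hepatocytes also make. Col18a1 had 10.81, 10.62, 10.88, 10.73 and 10.88 in CVX-060 rats 1 to 5, and 10.47, 10.40, 10.95, 10.73 and 10.68 in vehicle rats 1 to 5. Vehicle rat 2, which was the highest rat for 5 other members, was the lowest for Col18a1. Its difference was 0.14 (-0.10 to 0.37, exact permutation test, p = 0.238), the lowest exact p among the members, where the smallest that 5 against 5 rats allow is 0.00794. Col15a1 stayed between 5.10 and 5.36 in CVX-060 rats and between 5.01 and 5.39 in vehicle rats, below background in all 10, so its difference of 0.06 (-0.14 to 0.25) has no reading as a change in the gene.

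**Figure D2:**
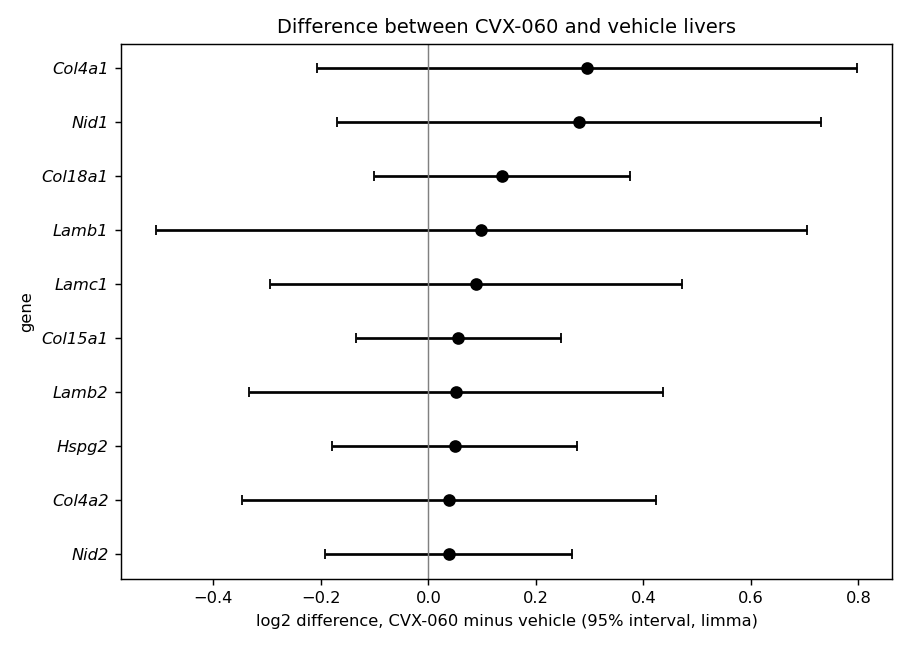
Difference in log2 signal, CVX-060 minus vehicle, for each basement membrane gene (points) with its 95% interval from limma (bars), ordered by size. All 10 points lie right of 0, from 0.04 for Nid2 to 0.30 for Col4a1, and every interval includes 0.

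Most of the spread lay within the groups. The share of a member's variance between groups ran from 0.51% (Col4a2) to 16.3% (Col18a1). Over the 10 rats the SD of Lamb1 was 0.46, above that of 92.0% of genes, and the SDs of Col4a1 (0.41) and Nid1 (0.37) lay above 89.3% and 86.4% of genes. In all, 6 of 10 members varied more than the median gene (SD 0.18), and Col18a1, Nid2, Hspg2 and Col15a1 did not. The SD was smaller in CVX-060 rats than in vehicle rats for 9 of 10 members, Col4a2 being the exception. For Lamb1 it was 0.31 with CVX-060 and 0.61 with vehicle, and for Nid2 0.09 with CVX-060 and 0.21 with vehicle. This difference in spread was not tested. The share of all genes with a smaller SD in CVX-060 rats was not counted, so it cannot be called particular to these genes. Vehicle rat 5 was the lowest of the 10 rats for 6 members.

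Several members rose and fell together from rat to rat. Of 45 pairs, 39 had a Pearson's r above 0, with a median of 0.58 and a range of -0.42 to 0.95, and 13 pairs, all positive, passed an adjusted p of 0.05 in permutation tests over the 10 rats (100000 permutations, adjusted over the 45 pairs). The closest were Col4a1 and Nid1 (r = 0.95, permutation p = 2e-05, adjusted p = 9.0e-04; Spearman's rho = 0.94, permutation p = 0.00018), Col4a1 and Lamb1 (r = 0.95, p = 5e-05, adjusted p = 0.0011; rho = 0.95, p = 7.0e-05) and Lamb1 and Nid1 (r = 0.92, p = 9.0e-05, adjusted p = 0.0014; rho = 0.99, p = 2e-05). Thus a chain of collagen IV, a chain of laminin and the nidogen that bridges them ranked the rats almost alike.

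**Figure D3:**
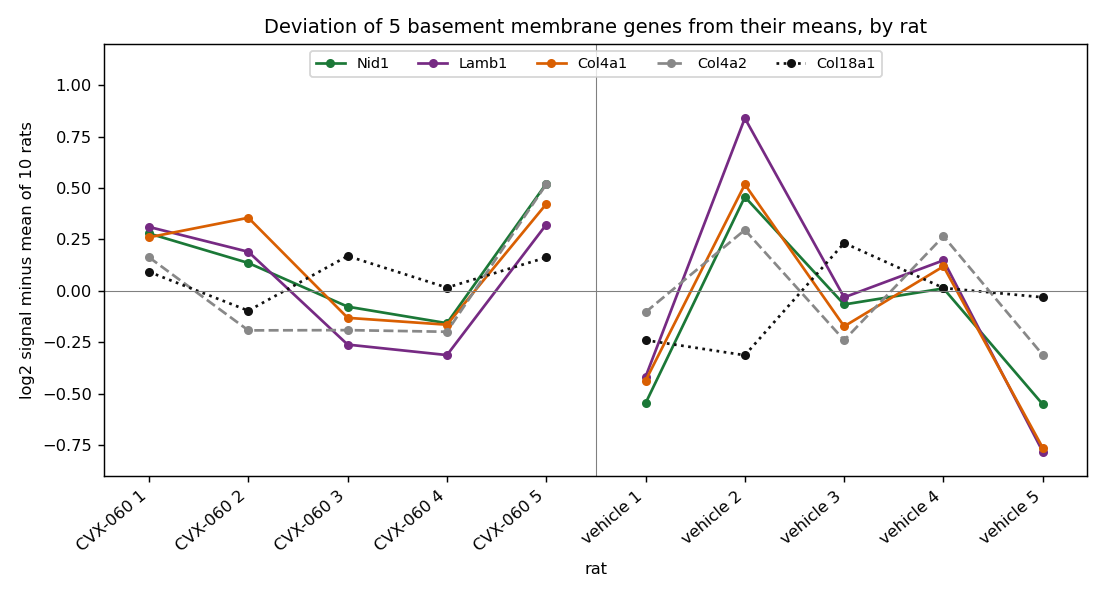
Log2 signal minus the mean of the 10 rats (y axis) for Nid1, Lamb1, Col4a1, Col4a2 and Col18a1, by rat, with CVX-060 rats left of the grey line and vehicle rats right of it; lines only join the points of a gene. Nid1, Lamb1 and Col4a1 move together, with high points in CVX-060 rat 5 and vehicle rat 2 and low points in vehicle rats 1 and 5, and Col18a1 runs the other way in vehicle rat 2.

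This trio also held in narrower sets of rats. With each gene centred on its group means, r was 0.94 for Col4a1 with Nid1, 0.98 for Col4a1 with Lamb1 and 0.96 for Lamb1 with Nid1. Without the rats that stood apart it was 0.94, 0.96 and 0.93 for the same pairs, and without the 2 rats farthest from the median of the first-named gene 0.93, 0.93 and 0.90. Nid1 with Nid2 was the only other pair of the 45 that passed in both smaller sets of 8 rats (r = 0.77 in 10 rats, adjusted permutation p = 0.034; 0.86 and 0.90 in the smaller sets), but its rank correlation did not pass (rho = 0.66, adjusted permutation p = 0.11). The count of pairs past the threshold was 7 after centring on group means, 4 without the rats that stood apart and 4 without the 2 farthest rats. The other 9 of the 13 pairs had r of 0.74 to 0.90 in 10 rats and did not pass in either set of 8 rats, where their r was 0.50 to 0.83. Some hardly moved without the rats that stood apart, such as Col4a1 with Lamb2 (0.80, against 0.81 in 10 rats), and others fell more, such as Col4a2 with Nid1 (0.50, against 0.76), and 8 rats also give less power than 10.

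**Figure D4:**
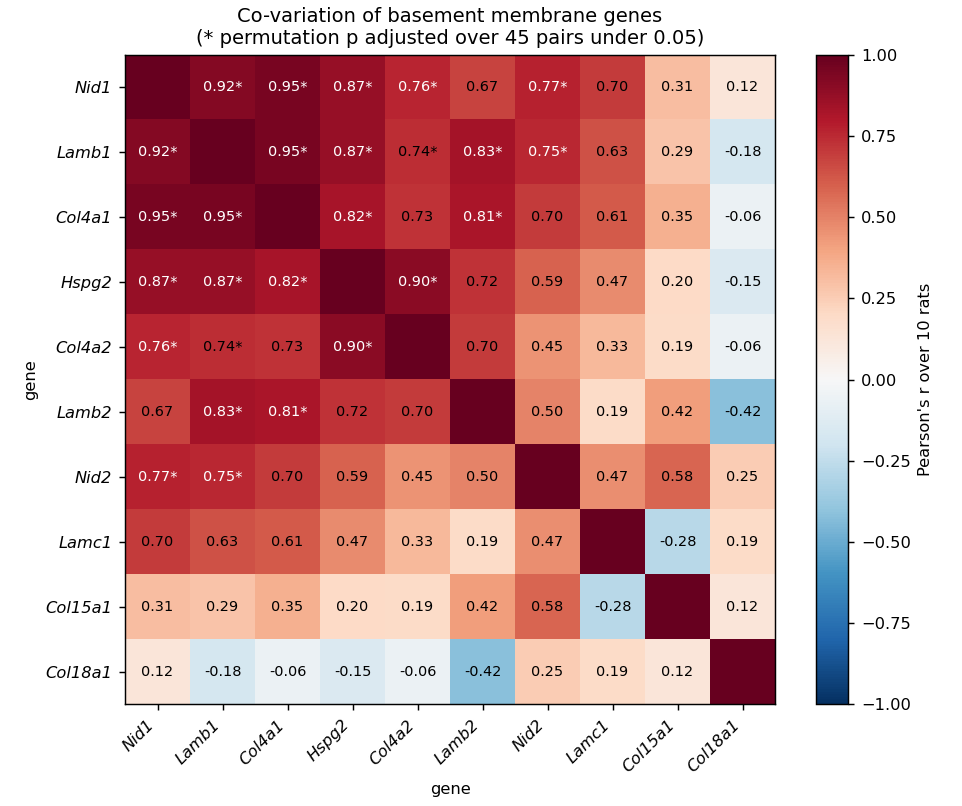
Pearson's r over 10 rats for each pair of basement membrane genes, with an asterisk where the permutation p adjusted over 45 pairs is under 0.05. The dark block of Nid1, Lamb1 and Col4a1 holds r of 0.92 to 0.95, and the Col15a1 and Col18a1 rows hold no asterisk.

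Col4a1 and Col4a2, which share the start region printed above, were less alike than that trio. Their r was 0.73 (permutation p = 0.018, adjusted p = 0.058; rho = 0.76, p = 0.015, adjusted p = 0.052), and 0.56 without the rats that stood apart. When all genes were ordered by their r with Col4a1, Nid1 came 8th and Lamb1 10th, whereas Col4a2 came 833rd. A second Col4a1 probe set, which followed the first with r = 0.98, gave the same picture, with r of 0.73 with Col4a2, 0.92 with Lamb1 and 0.94 with Nid1. The closest member to Col4a2 was Hspg2 (r = 0.90, adjusted permutation p = 0.0081). CVX-060 rat 2 shows the split, being second highest of the treated rats for Col4a1 and among the lower ones for Col4a2. Col4a2 had 1 probe set, so no second reading of it was possible, and the difference between these correlations was not tested.

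Lamc1, Col15a1 and Col18a1 had no partner past the threshold. Lamc1 was nearest to Nid1 (r = 0.70, adjusted permutation p = 0.070), and Col18a1 had a median r of -0.06 with the other 9 members. Second probe sets bear on how far these values can be read. Those of Lamc1 and Col18a1 followed the sets used with r of 0.80 and 0.67, that of Nid1 did not (r = -0.26, with signals of only 5.76 to 6.14), and that of Col15a1 had r = 0.08, with both sets below background.

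Averaged over the 10 members, each centred on its own mean, CVX-060 rats 1 to 5 stood at 0.16, 0.06, -0.08, -0.11 and 0.25, and vehicle rats 1 to 5 at -0.27, 0.30, -0.03, 0.09 and -0.36. The genes were not scaled to equal spread, so members that varied more weigh more in this average. Each member is itself part of this average, which raises its r with it. The r of the average was 0.98 with Nid1, 0.97 with Col4a1 and 0.97 with Lamb1. It was 0.78 to 0.89 with Hspg2, Col4a2, Nid2 and Lamb2, 0.64 with Lamc1, 0.35 with Col15a1 and 0.03 with Col18a1. Likeness to this average therefore says little about Col15a1 and Col18a1. The second probe sets had an r with this average of 0.95 for Col4a1, 0.54 for Col18a1 and 0.38 for Lamc1. It was -0.31 for Nid1 and -0.57 for Col15a1. The low r of Col18a1 thus depends on the probe set. This average was highest in the rats that stood apart, CVX-060 rat 5 and vehicle rat 2. Over the 10 rats it had an r of 0.78 with the first principal component, 0.87 with Sult2a2, a sulfotransferase that is female-biased in rat liver, and -0.87 with Obp3, a male-biased carrier protein. It had an r of 0.59 with the array median (5.52 to 5.57), 0.19 with the clock gene Bmal1, 0.13 with the 3′ to 5′ signal gap of actin, and 0.00 with that of Gapdh, both gaps being measures of RNA integrity. The actin gap was 1.68 to 2.09 in CVX-060 rats and 1.35 to 1.69 in vehicle rats, with only CVX-060 rat 4 below the highest vehicle rat. The Gapdh gap was -0.02 to 0.24 in CVX-060 rats and -0.05 to 0.02 in vehicle rats. All these values describe 10 rats. The part of any of them in the members' spread or in the differences between groups was not tested.

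The genes most like this average, by r over the 10 rats, were Dpysl2 (0.99), Calcb (0.98), Col6a3 (0.98), Tspan8 (0.97), Fstl1 (0.97), Col5a2 (0.96), Fbn1 (0.96), Pxdn (0.96), Mkln1 (0.96) and Timp2 (0.96). Col6a3, Col5a2 and Fbn1 encode interstitial matrix proteins (collagens VI and V and fibrillin), Pxdn is the peroxidase that forms sulfilimine crosslinks in collagen IV, and Timp2 inhibits matrix metalloproteinases. Calcb was below background in every rat. An r above 0.9 was reached by 125 of 14207 genes (0.88%), and an r above 0.8 by 566 (3.98%).

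Other components of the sheet were described from a list of 27 genes, of which 21 were measured and 11 lay above background in every rat. With CVX-060, 12 were higher and 9 lower on average, where 52.6% of all genes were higher. In limma, 0 passed an unadjusted p of 0.05 (2.44% of all genes). The extremes were Lama5, an alpha chain (5.97 with CVX-060 and 5.65 with vehicle, a difference of 0.32), and Lama3, another alpha chain (7.82 with CVX-060 and 8.25 with vehicle, -0.43). The mean of the list had an r of 0.91 with the members' average, and 0.85 without the rats that stood apart. By gene, r exceeded 0.8 for 7 of 21, with Pxdn highest and Smoc1, a calcium-binding matrix protein, lowest (-0.70). Lama3 also ran against the members (r = -0.66).

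Of 16 genes listed for the folding, modification and crosslinking of collagens in general or for laminin assembly, 11 were higher with CVX-060 (52.6% of all genes were). The list is not particular to collagen IV. Pxdn is also counted among the other components above, and Dag1 among the receptors below. An unadjusted p of 0.05 was passed by 0 of the 16 (2.44% of all genes). Serpinh1, the collagen chaperone HSP47, had the highest difference (8.74 with CVX-060 and 8.43 with vehicle, 0.31), and Mia3, which loads procollagen at endoplasmic reticulum exit sites, the lowest (6.57 with CVX-060 and 6.91 with vehicle, -0.34). The mean of the 16 had an r of 0.93 with the members' average (0.90 without the rats that stood apart). By gene they were divided, with a median r of 0.47, 5 of 16 above 0.8 and 2 below -0.5. Genes of wide spread weigh more in such a mean, among them Lox, which was above background in 4 rats. Tmem38b, a channel of the endoplasmic reticulum, had the lowest r (-0.74). Loxl1, a lysyl oxidase, had an r of 0.94.

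Among 13 receptors of the sheet, 8 were higher with CVX-060 (52.6% of all genes were). An unadjusted p of 0.05 was passed by 1 of them (2.44% of all genes). Itga6, the laminin-binding integrin alpha 6, had 7.77 with CVX-060 and 7.16 with vehicle, a difference of 0.61 (95% interval -0.06 to 1.27; limma, unadjusted p = 0.069). Itga7 passed an unadjusted p of 0.05 (difference -0.23, exact permutation test, p = 0.048) but lay below background in every rat. The receptor most like the members was Dag1, dystroglycan (r = 0.88), and the least was Sdc2, a syndecan (r = -0.82). Of 14 genes for proteases that degrade the sheet and their inhibitors, 12 were higher with CVX-060 (52.6% of all genes were). An unadjusted p of 0.05 was passed by 0 of the 14 (2.44% of all genes). Ctss, cathepsin S, had the highest difference (0.35) and Timp3 the lowest (-0.23). Timp2 had the highest r (0.96), followed by Mmp2, the gelatinase that cleaves collagen IV (0.96), and Mmp9, below background in every rat, the lowest (-0.33).

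**Figure D5:**
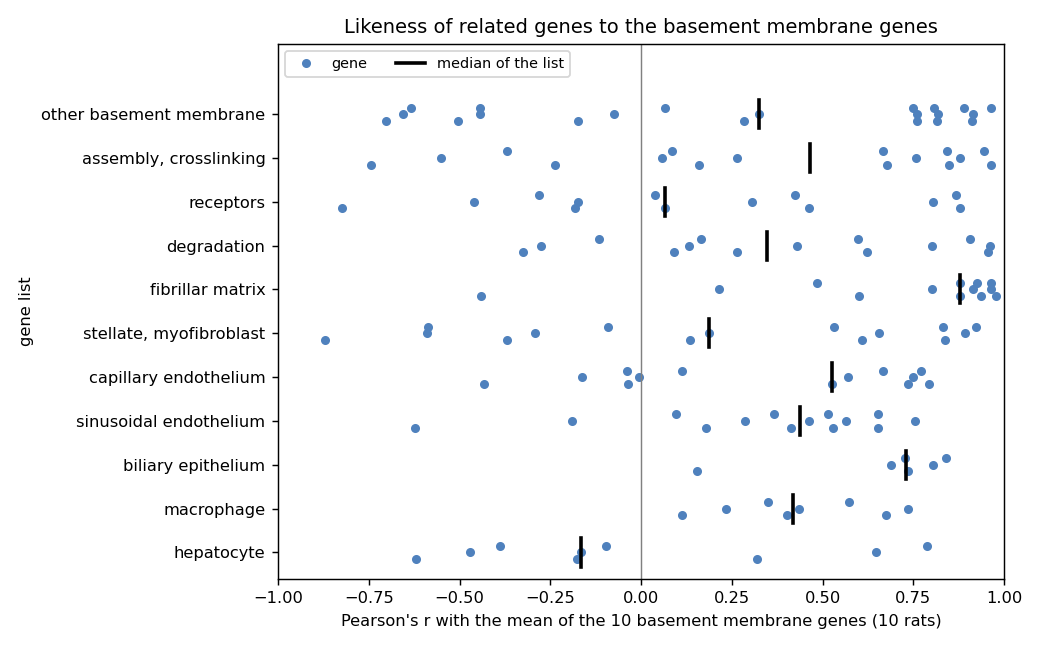
Pearson's r over 10 rats of each gene (points) with the mean centred signal of the 10 basement membrane genes, by gene list, with the median of each list as a black bar. Fibrillar matrix genes crowd at the right end, with 9 of 13 above 0.8. Of capillary and sinusoidal endothelial genes, 0 of 13 and 0 of 14 reach that value, where 3.98% of all genes do. The median r was 0.88 for fibrillar matrix, 0.53 for capillary, 0.44 for sinusoidal and 0.19 for stellate genes.

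Genes of the cells that could make the sheet moved with the members to different degrees. Fibrillar matrix genes were closest: the list's mean had an r of 0.92 with the members' average (0.87 without the rats that stood apart), and 9 of 13 genes had an r above 0.8, against 3.98% of all genes. Col6a3 was highest and Fn1, fibronectin, which hepatocytes secrete, lowest (-0.44). With CVX-060, 11 of the 13 were higher (52.6% of all genes were), Col5a2 the most (7.83 with CVX-060 and 7.50 with vehicle, 0.33). An unadjusted p of 0.05 was passed by 0 of the 13 (2.44% of all genes). Lum, lumican, had 4.90 with CVX-060 and 5.90 with vehicle, a difference of -1.01 (-2.04 to 0.02; limma, unadjusted p = 0.054), and was above background in 3 rats.

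Stellate cell and myofibroblast genes had an r of 0.82 as a list (0.86 without the rats that stood apart), led by Pdgfrb, a PDGF receptor of stellate cells (r = 0.92). By gene they were divided: the median r was 0.19, with 4 of 15 above 0.8 and 3 below -0.5. Colec11 (r = -0.59), a lectin well above background, Reln (-0.59) and Lrat (-0.29), the retinol-storing enzyme of quiescent stellate cells, ran against the members, though without the rats that stood apart their r was -0.07, 0.13 and 0.07. Pdgfrb also had the highest difference of its list (6.61 with CVX-060 and 6.28 with vehicle, 0.33), and Myl9 the lowest (-0.10). Ngfr was lowest in r (-0.87) and lay below background in every rat. The mean centred signal of the 15 genes ranged from -0.14 to 0.15 in CVX-060 rats and from -0.20 to 0.16 in vehicle rats, and 9 of 15 were above background in every rat. Biliary epithelial genes, whose cells rest on a basement membrane of their own, had an r of 0.82 (0.70 without the rats that stood apart), with Epcam highest (0.84) and Spp1 lowest (0.15). Their mean ranged from -0.52 to 0.45 in CVX-060 rats and from -0.63 to 0.51 in vehicle rats. Of 6 measured, Krt7, Cftr and Cldn4 were below background throughout, and the differences ran from -0.14 (Cftr) to 0.30 (Krt19).

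Endothelial genes bear on capillarization. The list of continuous capillary endothelium (13 measured; the array had no probe set for Cd34 or Cdh5 alone) had an r of 0.70 with the members' average, which was 0.45 without the rats that stood apart. By gene the median r was 0.53, and 0 of 13 passed 0.8, where 3.98% of all genes did. Fabp4, a fatty acid carrier of capillaries, was highest (0.79) and Selp lowest (-0.43). With CVX-060, 9 of 13 were higher (52.6% of all genes were), and the median difference was 0.05. An unadjusted p of 0.05 was passed by 0 of the 13 (2.44% of all genes). The differences ran from Vcam1 (7.35 with CVX-060 and 7.58 with vehicle, -0.24) to Emcn, endomucin (7.50 with CVX-060 and 7.23 with vehicle, 0.27). The list's mean ranged from -0.21 to 0.26 in CVX-060 rats and from -0.35 to 0.32 in vehicle rats, and 8 of 13 genes were above background in every rat, Sele, Selp and Apln in none.

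Sinusoidal endothelial genes followed the members less closely as a list (r = 0.38, and 0.42 without the rats that stood apart). By gene the median r was 0.44, from Clec4m (-0.62) to Stab2, the hyaluronan scavenger receptor (0.76). All 14 were higher on average with CVX-060, by a median of 0.28, where 52.6% of all genes were higher, and 2 of 14 passed an unadjusted p of 0.05 in limma, as did 2.44% of all genes. After adjustment 0 passed. Of the 14 genes, 10 were above background in every rat, Bmp2 in 7 rats, F8 in 6, Clec4m in 5 and Wnt2 in 0. Lyve1, a hyaluronan receptor that is lost in capillarized sinusoids, averaged 10.57 ± 0.16 with CVX-060 and 10.13 ± 0.34 with vehicle (SD), a difference of 0.44 (0.10 to 0.78; unadjusted p = 0.016, adjusted p = 0.99997, exact permutation test, p = 0.016). Mrc1, the mannose receptor, averaged 9.53 ± 0.27 with CVX-060 and 9.13 ± 0.29 with vehicle, a difference of 0.40 (unadjusted p = 0.032, exact permutation test, p = 0.071), and Cd36 had the lowest difference (0.01). The list's mean ranged from -0.18 to 0.36 in CVX-060 rats and from -0.55 to 0.11 in vehicle rats, so that the groups overlapped. Whether the difference of this list departs from that of the basement membrane genes was not tested.

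Macrophage genes, some of which sinusoidal endothelium also expresses, were likewise higher with CVX-060 in 8 of 8 (median 0.25, against 52.6% of all genes higher). In limma, 1 of 8 passed an unadjusted p of 0.05, as did 2.44% of all genes, and 0 after adjustment. It was C1qc (difference 0.32; limma, unadjusted p = 0.046, adjusted p = 0.99997, exact permutation test, p = 0.063). Cd68 had the lowest difference (0.10). As a list, macrophage genes had an r of 0.50 with the members' average, and 0.19 without the rats that stood apart. By gene, their r ran from Clec4f (0.11) to Adgre1 (0.73). Their mean ranged from -0.36 to 0.56 in CVX-060 rats and from -0.32 to 0.11 in vehicle rats. Hepatocyte genes had an r of 0.07 as a list, and 0.67 without the rats that stood apart, with Apoa1 highest (0.79) and Serpina1 lowest (-0.62). Their differences ran from -0.17 (Apob) to 0.16 (Apoa1).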

How the data were processed

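Whole-liver RNA of 10 rats (150 ng each) was measured on a 3′ expression array, 5 rats per group, each label naming a biological replicate. Values were used as deposited, on the log2 scale and already normalized across arrays by the authors, with a value for each probe set. Background correction and summary method are not given in the sources used here. Tools listed in the submitters' notes are R 3.4.0, affy 1.56.0 and limma 3.38.2, without their roles. The number of arrays limits the precision. After quality control and principal component plots, the paper kept only some replicates of each treatment for its own work. All 10 arrays were used here, including those it set aside.

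The table held 31099 probe sets. Control sets (57), sets with several symbols (436) and sets with none (9780) were dropped, and 20826 sets of 14217 genes remained. Symbols were updated through Entrez IDs to RefSeq (20758 matched). Each gene was represented by its most variable set. The CVX-060 and vehicle groups were compared with limma 3.58.1 (lmFit, eBayes, R 4.3.3), adjusted by Benjamini-Hochberg over all genes, and the procedure was tested on simulated data. Single differences had an exact two-sided permutation test, and member pairs a two-sided permutation test of Pearson's r and Spearman's rho. Tables and plots were made in Python 3.11.15 (matplotlib 3.10.9, scipy 1.17.1, pandas 2.3.3, numpy 2.4.6).

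Named genes were all members and the 10 genes of highest r with the members' average. In each list they were those of lowest and highest difference, lowest and highest r, and any with an unadjusted p under 0.05. Eif2s3y, Cyp2c12, Sult2a2, Obp3, Bmal1, Lox, Loxl1, Mmp2, Colec11, Reln and Lrat were named after their values were seen. Alb, Krt7, Cldn4, Sele, Apln, Bmp2, F8 and Wnt2 also fall outside this rule and were named for their level. Members and lists were chosen with earlier results of these data known. Alternatives were the set of highest mean, all probe sets tested, dropping genes under the 40th percentile of mean signal, a further quantile normalization, array medians set to 0, array weights, a trended robust prior, a replicate block, each rat left out, both rats that stood apart left out, other background limits, and, chosen after seeing the data, the Bmal1 level as a covariate.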

Additional observations from a re-analysis of the deposited data

How the results depend on the processing

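Over 199 member differences recomputed under the alternatives, 190 kept their direction and side of the threshold and 9 changed sign, all of them small. Outside leaving out a rat, the sign changed for Col4a2 without the rats that stood apart (-0.00735) and for Lamb2 with Bmal1 as a covariate (-0.0129). With each rat left out in turn, the difference ranged from -0.0861 to 0.117 for Col4a2, -0.0847 to 0.321 for Lamb1, -0.0674 to 0.162 for Lamb2 and -0.0434 to 0.0877 for Nid2. The Col4a2 difference was lowest without CVX-060 rat 5 and also negative without vehicle rat 3 (-0.0167) or vehicle rat 5 (-0.0347). That of Lamb2 was lowest without vehicle rat 5 and also negative without vehicle rat 3 (-0.0143). That of Lamb1 turned negative without vehicle rat 5, and that of Nid2 without vehicle rat 1. The number of members higher with CVX-060 ranged from 7 (without vehicle rat 5) to 10, and their median difference from 0.02 (without vehicle rat 5) to 0.14 (without vehicle rat 2). Without vehicle rat 2, Nid1 (0.43) and Col4a1 (0.46) passed an unadjusted p of 0.05 in limma, as did 713 of 14217 genes, and none after adjustment.

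With limma, 0 genes reached an adjusted p of 0.05 under every alternative run. The number at an unadjusted p under 0.05, 347 here, was 686 with array weights, 816 with Bmal1 as a covariate, 581 without the rats that stood apart, 557 of 20826 probe sets with every set tested, and 156 of 8530 genes after the filter, which removed Col15a1. With the replicate number as a block (replicate block), 389 genes passed unadjusted and 0 after adjustment, and the members' median difference stayed at 0.07. Same-numbered rats did not deviate together over all genes (r of -0.17 to 0.15). This gave no sign of a pairing by number, but such an r cannot exclude one. The count of member pairs past the threshold, 13 here, was 7 when centred on group means, 8 with Spearman's rho, 4 without the rats that stood apart, 4 without the 2 farthest rats and 9 with array medians at 0. Members above background in every rat numbered 3 with the 99th percentile as the limit, against 8. Hspg2, Lamb2 and Col15a1 lie near or below background, which limits what their values can show.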
